A study of Mus musculus with 10 samples.

Results

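The outflow vein of a mouse arteriovenous fistula was described from its own transcript levels, without a comparison between treatments. The members are the 5 libraries of the vehicle group, chosen by their labels, out of 10 in the series. Of the 43346 genes in the table, the 22019 protein-coding genes that do not lie on the mitochondrial chromosome were used. All animals, labelled with the strain C57, carried a human CX3CR1 knock-in (hCX3CR1), so the receptor of fractalkine was altered in every vein described here. Chronic kidney disease was induced first, and 28 days later the fistula was made from the jugular vein and the carotid artery. Vehicle, in a volume equal to that of the antibody solution, was injected into the peritoneum 2 times per week. Veins were collected on day 7 of the fistula. The labels give neither sex nor age, and they do not say whether each library is 1 animal, so the spread given below is that between these 5 libraries. There was no vein without kidney disease or without a fistula among the labels, so a level below describes this operated vein and is no change from a resting one.

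When a vein is joined to an artery it is exposed to arterial pressure and fast flow, and its wall is rebuilt. Smooth muscle cells and fibroblasts of the wall divide and lay down collagens, fibronectin and proteoglycans, and monocytes enter from the blood and become macrophages. A bulk library adds up all these cells, the blood caught in the lumen and any tissue dissected with the vein. In such samples fewer cells of a type and less RNA per cell cannot be told apart.

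The libraries, named vehicle 1 to vehicle 5, held 10648088 to 34271554 reads assigned to genes, of which 65.7% to 75.3% fell on protein-coding genes. Vehicle 5 was the shallowest and vehicle 4 the deepest. A level is given as TPM, the deposited RPKM of a gene divided by the sum of RPKM over the protein-coding genes of that library and scaled to 1000000. TPM is a level per deposited gene length, so a comparison between genes holds only as far as those lengths do. For Fabp4 (chr3:10204088-10208576) the length was 4489 bp, its whole span on the chromosome. A length beyond that of the transcript lowers the level given. Errors are the SD over the 5 libraries, and values listed for 5 libraries run from vehicle 1 to vehicle 5. All libraries had reads on the 4 Y-linked genes examined. The 13 protein-coding genes encoded by mitochondria were at 0 reads in these libraries. Of the genes of at least 1 TPM on average, vehicle 2 was the highest library in 33.2% and vehicle 5 the lowest in 34.8%, and these shares are the background for the counts below. In every pair of libraries the reads differed by far more than sampling noise (chi-square per degree of freedom 30.2 to 118), so none was a second copy of another.

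Collagens of the fibrillar kind stood at the top. Col3a1 (chr1:45311538-45349706, mm10), the chain of type III collagen that is abundant in distensible vessels, had 19895, 15294, 19396, 15149.9 and 20824 TPM, with a mean of 18112 ± 2688 TPM. Col1a1 (chr11:94936224-94953042), a chain of type I collagen, had 15248, 16679, 12388, 12101 and 18815 TPM. The level of Col3a1 was above that of Col1a1 in 4 of 5 libraries, the exception being vehicle 2. Col1a2, the partner chain of Col1a1 in the type I trimer, had 5548 ± 860.4 TPM. The ratio of Col1a1 to Col1a2 was 2.28 to 3.09, whereas the ratio of Col3a1 to Col1a1 ran from 0.917 in vehicle 2 to 1.57 in vehicle 3. These orders and ratios depend on the deposited lengths, 9816 bp for Col3a1, 6563 bp for Col1a1 and 12136 bp for Col1a2. In reads not divided by length, Col3a1 was above Col1a1 in vehicle 2 also, with 590507 against 430573.

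Next came genes of macrophages, matrix and general cell machinery. Apoe, the apolipoprotein that macrophages secrete, had 9498, 12342, 10410, 6545 and 11772 TPM, lowest in vehicle 4. Sparc, a matricellular protein that binds collagen, had 7354 ± 861 TPM, and it was below Apoe in 5 of 5 libraries. Lyz2, the lysozyme of macrophages and neutrophils, had 5501 ± 654 TPM. In 5 of 5 libraries Lyz2 was above the ribosomal protein gene Rplp1 (4507 ± 688 TPM), and Rplp1 was above the elongation factor gene Eef1a1 (4132 ± 614 TPM). Actb, cytoplasmic actin, had 5829.5 ± 739 TPM, Fth1, the heavy chain of the iron store ferritin, 5812 ± 631 TPM, and Col1a2 stood beside them. These 3 neighbours kept no common order: Actb was above Fth1 in 2 libraries and Fth1 above Col1a2 in 3. With 5 pairs an exact two-sided test of an order cannot go below p = 0.0625, so an order is given as the number of libraries that show it.

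The 25 genes of highest mean level also held Vim, the filament protein of mesenchymal cells (3654 ± 698 TPM), Mgp, an inhibitor of calcification in vessels (3403 ± 1268 TPM), Fn1, fibronectin (2988 ± 824 TPM), Dcn, the proteoglycan decorin of fibroblasts (2924 ± 924 TPM), B2m, the light chain of MHC class I (2910 ± 724 TPM), and Postn, the matricellular protein periostin (2633 ± 656 TPM). Psap, a lysosomal protein, was the least variable of the 25 on the log2 scale, at 2366 to 2890.3 TPM over the libraries. Lars2, a mitochondrial leucyl-tRNA synthetase, was listed at 6929, 5462, 3228, 8704 and 9302 TPM, with vehicle 3 lowest. Whether all reads assigned to Lars2 come from its transcript was not tested, so its rank is uncertain. Acta1, Tnnc2 and Tnnt3 of skeletal muscle entered the 25 through vehicle 4 and vehicle 5. In all, 13 genes were among the top 25 in each of the 5 libraries, and 47 were among the top 25 of at least 1.

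**Figure D1:**
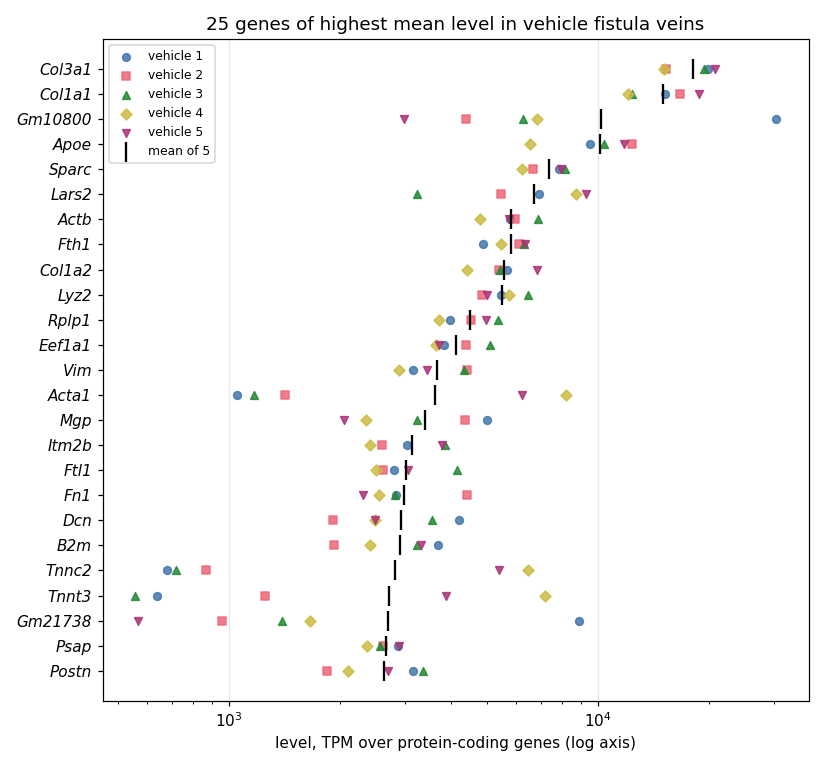
Level in TPM (log axis) of the 25 protein-coding genes of highest mean level; each symbol is 1 of the 5 vehicle libraries and the bar is their mean. Col3a1 lies between 15149.9 and 20824 TPM, Gm10800 and Gm21738 stand apart in vehicle 1, and Acta1, Tnnc2 and Tnnt3 stand higher in vehicle 4 and vehicle 5 than in the other libraries.

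A small number of genes took a large share of the transcripts. The 10 highest genes of a library held 9.44 ± 1.42% of its protein-coding TPM, the 100 highest 26.9 ± 1.73% and the 1000 highest 56.3 ± 1.77%. At the low end, 13497 genes (61.3%) reached 1 TPM in all 5 libraries, 4212 reached it in none, and 749 had no read in any library. Vehicle 1 had 17062 genes at 1 TPM or more and the others 14541 to 14798, although vehicle 4 held more reads than vehicle 1.

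Vehicle 1 also stood apart in a set of predicted genes. Gm10800 (chr2:98666547-98667301), a predicted gene with no established function, had 30482, 4379, 6258, 6817 and 2978 TPM, and in vehicle 1 it was above every other gene. Gm21738 (chr14:19415857-19418930) had 8879, 958, 1388, 1658 and 565 TPM. Gm10801 (chr2:98662237-98664083) had 6928, 738, 915, 1228 and 599 TPM. Together with 7 like genes, chosen after their values were seen, they took 4.76% of protein-coding TPM in vehicle 1 and 0.429% to 0.998% in the others. These genes share sequence: 39.2% of the 31-base words of Gm21738 occur in Gm10719 and 89.8% of those of Gm17535 in Gm10717. Their levels are therefore uncertain, and whether they are read from transcripts was not tested.

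The summed levels of gene lists give the make-up of the vein. Ribosomal protein genes took 6.88 ± 0.974% of protein-coding TPM (106 genes), and fibrillar and basement membrane matrix genes 5.67 ± 0.672% (25 genes). The macrophage list took 2.54 ± 0.289%, the matricellular and proteoglycan list 2.13 ± 0.251% and the fibroblast list 1.21 ± 0.218%. The contractile smooth muscle list took 0.481 ± 0.141%, and the pan-endothelial list 0.152 ± 0.0190%. The lists differ in length and in how much of each gene a cell makes, so these shares are shares of transcripts and not of cells. Between libraries, the matrix and macrophage lists moved by 1.36-fold each, the skeletal muscle list by 10.6-fold, the class II and dendritic cell list by 10.1-fold and the erythroid list by 7.79-fold.

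**Figure D2:**
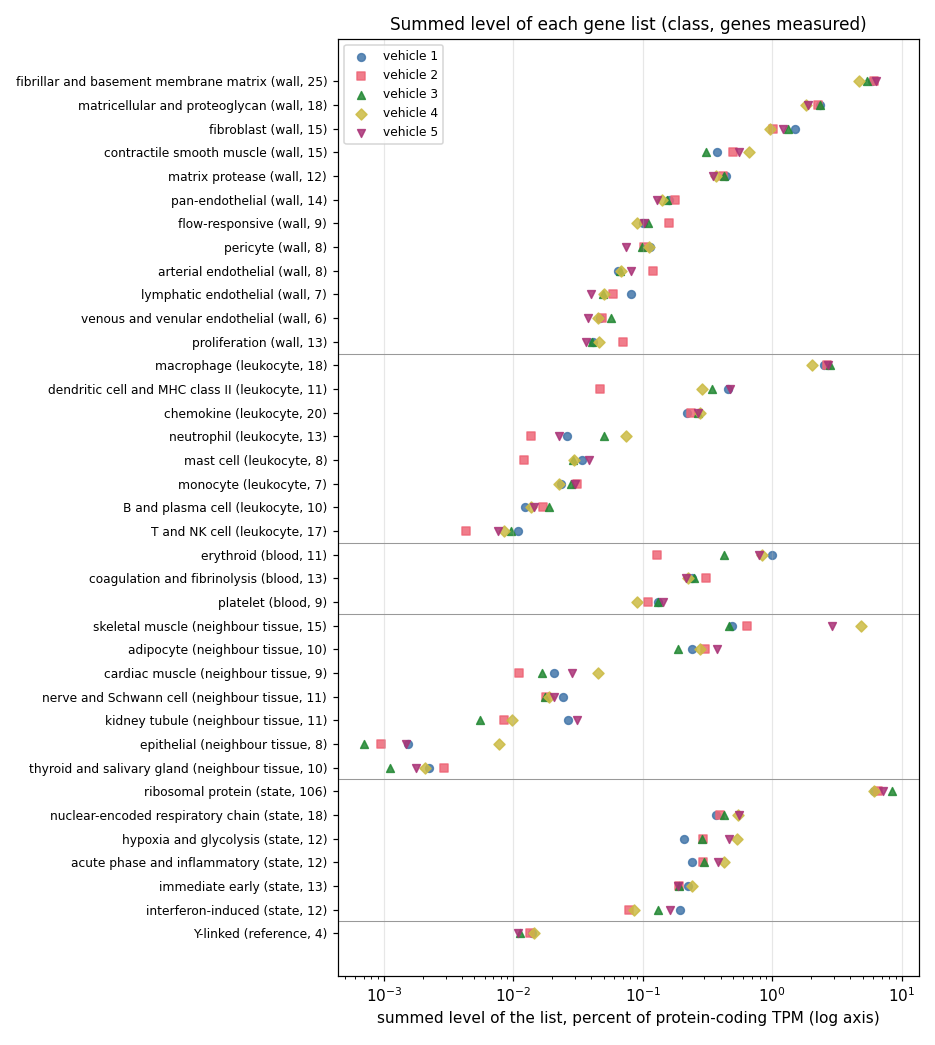
Summed level of each gene list in percent of protein-coding TPM (log axis), with 1 symbol per vehicle library and the number of measured genes in brackets. The matrix, macrophage and ribosomal lists lie close together in the 5 libraries, whereas the skeletal muscle, erythroid and class II lists spread by 7.79-fold to 10.6-fold.

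In the matrix list, collagen of type IV, the network of basement membranes, was part of a shift in vehicle 2. Vehicle 2 was the highest library in 18 of the 25 matrix genes (14 or 15 under the other scalings and without division by length), against 33.2% of all genes of at least 1 TPM. Col4a2 had 543, 1141, 434, 569 and 437 TPM. Fn1 had 2840.2, 4409.7, 2823, 2555 and 2313 TPM. In both genes vehicle 2 was above each of the other libraries, as it was in Col6a1 (1785, 2637, 1831, 1423 and 1737 TPM) and Hspg2, the basement membrane proteoglycan perlecan (452, 749, 419.7, 448 and 496 TPM). The summed share of the list did not follow: it was 5.89, 6.10, 5.39, 4.65 and 6.34%, with vehicle 5 the highest, since Col3a1 and Col1a1, both highest in vehicle 5, make up most of the sum. Eln, elastin, went the other way, with 1819, 478, 990.3, 790.2 and 1377 TPM, lowest in vehicle 2. The proteoglycan and fibroblast genes Dcn (4193, 1908, 3545, 2485 and 2486 TPM), Lum (1700.3, 727, 1627, 1067 and 992 TPM) and Col14a1 (1276, 437, 855, 768 and 901 TPM) were lowest in vehicle 2, and so were Dpt and Clec3b. The fibroblast list was split, with 6 of 15 genes lowest and 6 highest in vehicle 2. Of genes of at least 1 TPM, 14.2% were lowest and 33.2% highest there, so the count of highest genes is near the general share. Among the highest, Gsn, the actin-severing protein gelsolin, had 1957, 2953, 1503, 1205 and 1710.3 TPM. Mfap5, a microfibril protein, had 214, 373, 227, 175 and 208 TPM. Loxl1, Pdgfra, Dpep1 and Scara5 were also highest there, and Thy1, which marks fibroblasts, had 263 to 301 TPM over the libraries.

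Smooth muscle markers were present in all libraries. Acta2, smooth muscle actin, had 1218, 1394, 974, 864 and 924 TPM. Tagln, the actin-binding protein transgelin, had 453 ± 104 TPM. Myh11, the smooth muscle myosin heavy chain, had 216, 346, 115, 166 and 167 TPM, and vehicle 2 was the highest in it and in Acta2. Of the 15 genes, 9 were highest in vehicle 2, against 33.2% of genes of at least 1 TPM. In 7 the lowest library was vehicle 3, against 23% of genes at that level. Myocd, the coactivator that drives the contractile programme, was low at 1.94 to 5.38 TPM. Tpm2, a tropomyosin that skeletal muscle also makes, had 465, 816, 433, 2729.7 and 1970.4 TPM, and Des, the filament protein desmin of both muscle types, had 243, 495, 281, 1583 and 1109 TPM. Both were high in vehicle 4 and vehicle 5 as the skeletal muscle genes were, and Tpm2 held 26.7% of the list. Among matrix proteases the gelatinase Mmp2 (1629 ± 163 TPM) and the membrane protease Mmp14 (1334 ± 146 TPM) led and were steady, while Mmp9, which neutrophils carry, had 19.6, 92.7, 41.8, 173 and 25.4 TPM. Spp1, osteopontin, varied in the matricellular list, with 776, 1808, 1257, 1824 and 335 TPM. Pericyte genes were led by Pdgfrb (297 ± 69.3 TPM) and by Rgs5, a regulator of G protein signalling, with 305, 128, 272, 358 and 129 TPM.

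Endothelial genes were read in every library, with a median level over the 14 genes of 86.4 TPM. Cdh5, the cadherin of endothelial junctions, had 276, 352, 287, 290.2 and 209.8 TPM. Pecam1 had 252, 285, 239.9, 205 and 167 TPM. Egfl7, a secreted endothelial factor, had 152, 159.6, 166, 149.8 and 144 TPM. All 14 pan-endothelial genes were above 10 TPM on average, and their median SD was 0.27 on the log2 scale. Vehicle 2 was the highest in 9 of the 14, against 33.2% of genes of at least 1 TPM. Vehicle 5 was the lowest in 8 of the 14, against 34.8% of genes at that level. Markers of venous identity were Nr2f2, the transcription factor of vein fate (74.4 ± 22.6 TPM), and Ephb4, a receptor kinase of veins (117 ± 14.8 TPM). The arterial genes Efnb2 (32.7 ± 5.52 TPM), Dll4 (18.4 ± 4.50 TPM) and Gja4 (23.9 ± 6.14 TPM) were at lower levels, and Fbln2, a matrix protein that other wall cells also make, held 85.8% of the arterial list. Gja5, an arterial connexin, had 25.3, 11.4, 8.26, 24.8 and 4.64 TPM. Among lymphatic genes, Ccl21a, a chemokine of lymphatic vessels, had 471, 234, 216, 239 and 154 TPM. Mmrn1 had 56.5, 30.0, 25.4, 24.9 and 28.5 TPM. Vehicle 1 was highest in both.

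Flow-responsive genes included Klf2 (155, 129, 155, 106 and 105 TPM), a factor induced by laminar flow, and Nos3 (43.9, 70.6, 67.7, 50.4 and 49.3 TPM), which makes nitric oxide in endothelium. Hmox1, which breaks down haem, had 161, 437, 289.9, 285 and 194 TPM. Vehicle 2 stood highest in Hmox1 and in Nos3. The summed list was 0.158% of TPM in vehicle 2 and 0.0901% to 0.109% in the other 4.

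Genes of dividing cells were measured in every library. Vehicle 2 was the highest in all 13 of them, against 33.2% of genes of at least 1 TPM. Under the other scalings and without division by length it was the highest in 11 or 12. Mki67, a protein of dividing nuclei, had 100.3, 193, 76.0, 112 and 64.5 TPM. Top2a, the topoisomerase of mitosis, had 51.3, 74.0, 37.7, 57.1 and 40.4 TPM. Ccnb2, a mitotic cyclin, had 31.4, 77.0, 38.0, 39.2 and 39.5 TPM. The summed share was 0.0416, 0.0702, 0.0402, 0.0463 and 0.0363%. The other 4 libraries lay within 0.0363% to 0.0463%, below vehicle 2 at 0.0702%.

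Macrophage genes made up the largest leukocyte signal. Apart from Apoe, which held 39.9% of the list and which other cells can make, the complement genes C1qb (1345, 1162, 1597, 948 and 1538 TPM) and C1qa (1055, 931, 1271, 739.8 and 1299.7 TPM) were high in all libraries. The ratio of C1qa to C1qb stayed within 0.780 to 0.845. Csf1r, the receptor that macrophages need to survive, had 411, 344, 356, 340.4 and 405 TPM. Adgre1, the gene of the F4/80 antigen, had 290.4, 201, 345, 205 and 285 TPM. Mrc1, the mannose receptor, had 406, 459, 286, 341 and 360.2 TPM. The lysosomal proteases Ctsd (1972 ± 163 TPM) and Ctsb (1628 ± 172 TPM) had SDs of 0.12 and 0.16 on the log2 scale, below the median gene at 0.22.

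The monocyte list was at 0.0271 ± 0.00382%, with vehicle 2 the highest library at 0.0312%, a sum that includes Chil3 at 176 TPM. By gene, vehicle 2 was the lowest library in 5 of the 7, against 14.2% of genes of at least 1 TPM. Ccr2, the receptor that calls monocytes from the marrow, had 51.7, 16.1, 41.4, 52.4 and 46.6 TPM and was lowest in vehicle 2. Reads assigned to mouse Cx3cr1 (chr9:119901616-120068283), the locus that the knock-in concerns, gave 24.0, 7.00, 17.2, 15.4 and 12.8 TPM. The table holds 5 genes that overlap it, so part of its reads is uncertain, and reads of the human receptor were not analysed here. Its ligand gene Cx3cl1 (chr8:94772009-94782423) had 16.3, 22.1, 14.4, 12.9 and 8.63 TPM. Vehicle 2 was lowest for the receptor and highest for the ligand, and vehicle 5 was lowest for the ligand. Chil3, a secreted lectin of monocytes and alternatively activated macrophages, had 2.31, 176, 11.2, 5.71 and 6.11 TPM, so vehicle 2 was 15.6 times the next highest library. Of the 31-base words of Chil3, 28.9% occur in Chil4, so part of its reads is uncertain.

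Other leukocytes were scarcer. The neutrophil list took 0.0262, 0.0137, 0.0501, 0.0743 and 0.0226%, with S100a9, an alarmin of neutrophils, at 113, 51.0, 231, 374 and 101 TPM and its partner S100a8 at 56.2, 26.5, 143, 214 and 53.4 TPM. Both genes were highest in vehicle 4 and lowest in vehicle 2, and their ratio kept within 1.62 to 2.01. The granule genes Elane and Mpo, made by immature neutrophils, were below 1 TPM in every library. The T and NK cell list took 0.00819 ± 0.00251%, with the T cell receptor gene Cd3e at 5.62, 0.708, 3.08, 4.43 and 4.75 TPM. Vehicle 2 was the lowest in 13 of the 17 genes of that list, against 14.2% of genes of at least 1 TPM, and in 8 of 10 neutrophil genes (6 with the deposited scaling). Xbp1, which many cells make, held 90.9% of the B and plasma cell list. The mast cell protease gene Cma1 had 86.7, 26.5, 81.6, 80.8 and 127 TPM. Cpa3 had 53.6, 9.21, 38.1, 40.6 and 38.7 TPM. Both were lowest in vehicle 2. Among 20 chemokine genes Ccl8 led with 637, 709, 774, 1025 and 1201 TPM, followed by Ccl6 (501 ± 120.3 TPM) and Ccl7 (204 ± 30.9 TPM), all of which attract leukocytes of the monocyte line.

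Among the leukocyte lists the largest fold between libraries, 10.1, was in that of MHC class II, the proteins with which macrophages, dendritic cells and B cells show peptides to CD4 T cells. Class II genes are switched on together by CIITA, which is held at their promoters by factors that bind X and Y box motifs. H2-Ab1 (chr17:34263209-34269418) had 932, 83.8, 717, 605 and 1032 TPM. H2-Aa (chr17:34282744-34287827) had 602, 53.2, 456, 395 and 539.9 TPM, and they encode the chains of 1 class II molecule. H2-Eb1 (chr17:34305877-34316199) had 819.5, 73.6, 645, 543 and 1076 TPM. In all 3 genes vehicle 2 was far below the other libraries, which did not overlap it. Cd74, the invariant chain, had 2041, 205, 1519, 1238 and 1981 TPM. Ciita, the coactivator itself, had 24.7, 3.29, 16.1, 20.9 and 20.3 TPM, with the same library low. The mean of the other 4 libraries was 9.80 times the level of vehicle 2 in H2-Ab1, 8.29 times in Cd74, 6.22 times in Ciita and 4.47 times in H2-DMa, which helps to load peptides. H2-DMb2 was not lowest in vehicle 2, at 5.35, 4.76, 4.44, 7.44 and 7.98 TPM. The ratio of H2-Aa to H2-Ab1 was 0.523 to 0.653, with 0.634 in vehicle 2. H2-DMa and H2-DMb1 were less low there than H2-Ab1, since the mean of the other libraries was 3.05 times vehicle 2 in H2-DMb1. The class I gene H2-K1 had 817, 488, 814, 638 and 1267 TPM, lowest in vehicle 2 by a smaller margin, and H2-D1 1326, 945, 1503, 909.8 and 1956 TPM, lowest in vehicle 4. Itgax, which dendritic cells and macrophages share, had 87.9, 30.8, 49.2, 50.5 and 33.5 TPM. Zbtb46, a factor of dendritic cells and endothelium, had 12.9, 13.9, 9.34, 11.1 and 7.28 TPM. Macrophage genes in vehicle 2 went both ways against the mean of the other libraries. Csf1r, Cd68 and the C1q genes were at 0.853 to 1.07 times that mean, Cd14 at 0.499 and Adgre1 at 0.713 times, and Itgam at 1.23 and Mrc1 at 1.32 times. Vehicle 2 was lowest in 10 of the 11 genes of the class II and dendritic cell list, against 14.2% of genes of at least 1 TPM. The list took 0.321 ± 0.171% over the 5 libraries and 0.390 ± 0.0883% without vehicle 2.

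**Figure D3:**
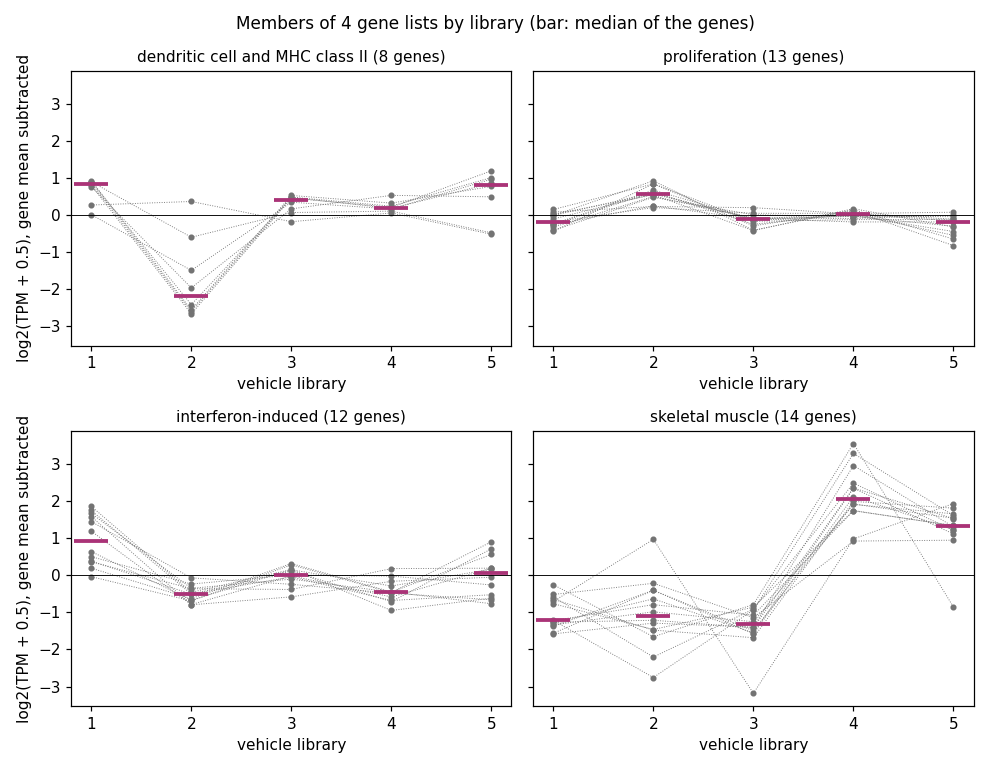
log2(TPM + 0.5) of each gene of 4 lists with its mean over the 5 vehicle libraries subtracted, for genes of at least 10 TPM; each dotted line is 1 gene and the bar is the median over the genes. The class II and dendritic cell genes dip and the proliferation genes peak in vehicle 2, the interferon-induced genes peak in vehicle 1, and the skeletal muscle genes are high in vehicle 4 and vehicle 5.

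Promoter sequence is shown for the class II genes because most of the group was low together in 1 library. A Y box was searched as CTGATTGG on both strands in the 250 bases before to 50 bases after the gene start. It was found in 4.10% of 32851 RefSeq promoters (GRCm38.p6) and in 4 of the 8 class II group genes with a promoter in the table. H2-Ab1, Cd74 and Ciita had no promoter that was searched. The shorter inverted CCAAT motif ATTGG, searched in the same way, which the Y box contains, was in all 8, against 37.4% of promoters. The general shares count promoters, whereas a group gene counts if any of its promoters matches. The shares of the group and of all promoters are therefore not in the same unit. The 250 bases before the start are given 5′ to 3′ with the Y box in capitals, for H2-Aa at chr17:34287824-34288073 (minus strand) and H2-Eb1 at chr17:34305617-34305866 (plus strand), where the box begins 51 and 62 bases before the start.
H2-Aa: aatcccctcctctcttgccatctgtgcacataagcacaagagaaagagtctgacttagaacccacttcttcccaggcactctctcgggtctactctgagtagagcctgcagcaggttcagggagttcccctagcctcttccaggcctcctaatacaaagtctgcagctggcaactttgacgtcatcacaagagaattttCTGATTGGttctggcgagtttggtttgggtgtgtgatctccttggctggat
H2-Eb1: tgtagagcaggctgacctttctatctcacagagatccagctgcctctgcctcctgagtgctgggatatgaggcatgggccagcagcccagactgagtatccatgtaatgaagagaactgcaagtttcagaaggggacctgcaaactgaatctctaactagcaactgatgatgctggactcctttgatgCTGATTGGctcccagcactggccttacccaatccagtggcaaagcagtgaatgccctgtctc
Both boxes lie at a similar distance from the start, while their 8 letters were fixed by the search. A match describes the letters only.

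Vehicle 2 stood apart in further genes, found by a rule added after the values were seen: at least 10 TPM on average and at least 2-fold above or below each of the other libraries. There were 36 such genes higher and 65 lower in vehicle 2, of 10504 genes. Among the higher ones, Cd163, the haemoglobin scavenger receptor of macrophages, had 59.0, 312, 23.7, 75.8 and 92.5 TPM. Fkbp5, an immunophilin induced by glucocorticoids, had 21.8, 122, 26.4, 23.7 and 28.4 TPM. Vehicle 2 lay more than 2-fold above each other library in both, while those 4 lay closer together in Fkbp5 than in Cd163. Prg4, the lubricant proteoglycan of joints and tendon sheaths, had 35.5, 375, 40.8, 80.0 and 59.97 TPM. Serpina3n, a protease inhibitor of inflamed tissue, had 188, 1056, 239, 389.6 and 232 TPM. Vehicle 4 was the next highest library in this pair of genes. Zbtb16, a transcription factor, had 11.4, 66.9, 13.4, 12.96 and 24.4 TPM. Per2, a clock gene, had 5.93, 35.0, 15.1, 10.03 and 14.7 TPM. Among the lower ones, Ccr7, the receptor that leads dendritic cells to lymph nodes, had 16.3, 0.642, 19.7, 8.45 and 12.7 TPM. Cd4 had 11.95, 2.21, 11.9, 17.0 and 9.24 TPM. Fcrls, a receptor-like gene of myeloid cells, had 127, 9.91, 105, 79.5 and 94.4 TPM. By the same rule vehicle 1 had 37 genes higher, of which 18 were predicted genes, and 8 lower. Vehicle 4 had 94 higher and 4 lower, and in 31 of the 94 vehicle 5 was not the second highest library. Vehicle 3 had 8 higher and 27 lower, and vehicle 5 had 7 higher and 28 lower. In vehicle 3, Rcn2, a calcium-binding protein of the endoplasmic reticulum, had 44.0, 48.3, 235, 42.2 and 46.1 TPM.

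Blood in the vessel was read from globin. Hbb-bs, a beta globin gene, had 3573, 448, 1839.5, 3145 and 2945 TPM. Hba-a1, an alpha globin gene, had 2354, 317, 1133, 1667 and 1706 TPM. Vehicle 2 was lowest in both, and vehicle 1 highest. The 4 globin genes together took 0.979, 0.125, 0.413, 0.819 and 0.771% of protein-coding TPM, and alpha and beta globin kept a ratio of 0.841 to 1.06. Hba-a2 shares 92.6% of its 31-base words with Hba-a1, so the split between such copies is uncertain, whereas their sum is less so. Alas2, the haem synthesis enzyme of red cells, moved the same way, with 218, 31.2, 80.4, 179 and 148 TPM. Of the 8 erythroid genes of at least 1 TPM, 7 were highest in vehicle 1, against 21.3% of all genes at that level. In 6 the lowest library was vehicle 2, against 14.2%. Platelet genes did not follow throughout: Pf4, a platelet chemokine that macrophages also make, had 770.3, 929, 1119, 713 and 995 TPM, whereas Ppbp had 322, 55.7, 97.9, 89.0 and 245 TPM. Gp9, a subunit of the platelet receptor for von Willebrand factor, had 85.2, 21.0, 25.97, 23.7 and 57.5 TPM. The last 2 were highest in vehicle 1 and then vehicle 5. In the coagulation list Serping1, the inhibitor of complement C1, led with 1155 ± 161 TPM, and F13a1, the clot-stabilising factor that macrophages make, had 308, 657, 212, 274 and 325 TPM. Globin was low in the same library in which class II, mast cell and T cell genes were low and proliferation genes were high; the part of blood in these differences was not tested.

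The skeletal muscle list had the largest median SD of its genes, 1.67 on the log2 scale, of all lists. Acta1 (chr8:123891767-123894736), skeletal actin, had 1053, 1419, 1165, 8215 and 6242 TPM. Myh4 (chr11:67238029-67260446), the myosin of the fastest fibres, had 335, 409.8, 379.7, 7808 and 2478 TPM. In both genes vehicle 4 and vehicle 5 lay several times above the other libraries. Ckm, muscle creatine kinase, had 319.9, 332, 289, 3939 and 2227 TPM. Pvalb, the calcium buffer of fast fibres, had 135, 46.1, 165, 3079 and 964 TPM. In each of these 4 genes vehicle 4 was highest and vehicle 5 came second, with the other 3 libraries well below. Over the list, vehicle 4 and vehicle 5 were the 2 highest in 13 of 15 genes, against 7.62% of genes of at least 10 TPM, and vehicle 4 was the highest in 12 (12 or 13 under the other scalings), against 18.8% of genes of at least 1 TPM. The fibre genes did not keep proportions: Myh2, a myosin of fast oxidative fibres, had 30.8, 99.4, 5.11, 100.4 and 195 TPM, highest in vehicle 5, and Sln, a regulator of the calcium pump, had 20.4, 7.39, 13.9, 292 and 13.2 TPM, high in vehicle 4 alone. Myh7, the slow fibre myosin, was at 0.884 to 6.73 TPM. The list took 0.487, 0.640, 0.461, 4.89 and 2.92% of protein-coding TPM, a mean of 1.88 ± 1.98%, and 0.529 ± 0.0964% without vehicle 4 and vehicle 5. Skeletal muscle is no part of the vein wall, and the part of such tissue in other differences of vehicle 4 and vehicle 5 was not tested.

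A promoter is shown for Acta1 because it was the skeletal muscle gene of highest mean level. A CArG box, the binding motif of serum response factor, was searched on both strands and found in its promoter. The box was in 1.63% of all RefSeq promoters and in 2 of the 12 list genes with a promoter. Here too the general share counts promoters and the other counts genes with any matching promoter, so the units differ. The 250 bases before the start, at chr8:123894776-123895025 (GRCm38.p6, minus strand), are given with the CArG box in capitals.
Acta1: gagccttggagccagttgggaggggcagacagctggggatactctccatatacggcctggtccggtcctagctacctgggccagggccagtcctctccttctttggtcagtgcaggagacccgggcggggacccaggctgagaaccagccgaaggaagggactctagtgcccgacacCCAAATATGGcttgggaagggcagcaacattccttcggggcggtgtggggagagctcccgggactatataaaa
The box begins 73 bases before the start.

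Other tissues gave smaller signals. In the epithelial list Krt18, a keratin of simple epithelia, had 3.46, 1.996, 0.753, 64.5 and 3.75 TPM, far highest in vehicle 4, and its partner Krt8 had 2.54, 0.141, 1.52, 6.80 and 2.62 TPM, while the epithelial genes Epcam and Cdh1 had 0.257 to 0.930 TPM and 2.52 to 3.04 TPM. The cardiac list was led by Actc1, an actin that immature and regenerating skeletal muscle also makes, with 124, 51.2, 89.6, 302 and 209 TPM, and the heart myosin gene Myh6 was at 0.230 to 1.39 TPM. Adipocyte genes were present in all libraries: Cfd, adipsin, had 1162, 1752, 848, 1418 and 2364 TPM. Adipoq, adiponectin, had 269.5, 312, 256, 304 and 363 TPM. The nerve and Schwann cell list was low, with Pmp22, which many cells make, at 81.0% of it, and Mbp, a myelin protein, at 9.005 to 9.75 TPM. 

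Genes of kidney tubules were read in the veins, and most were highest in vehicle 1 or vehicle 5. Kap, an androgen-regulated gene of the proximal tubule, had 142, 9.19, 18.4, 46.9 and 219 TPM. Slc34a1, its phosphate transporter, had 21.8, 2.23, 1.78, 3.84 and 14.8 TPM. Umod, uromodulin of the thick ascending limb, had 5.77, 1.23, 0.938, 2.39 and 9.98 TPM. In all 3 genes vehicle 1 and vehicle 5 were the highest libraries. Of the 10 tubule genes of at least 1 TPM, 5 were highest in vehicle 5, against 10.4% of all genes at that level. Vehicle 1 was the highest in 4, against 21.3%. Aqp2, the water channel of the collecting duct, is one of the 4, but it was lowest in vehicle 5, with 23.0, 15.4, 13.8, 13.4 and 9.26 TPM. Cyp4b1, a cytochrome P450 and the next most abundant gene of the list after Kap, was highest in vehicle 2, with 33.9, 51.8, 15.7, 23.5 and 25.8 TPM. The list took 0.0265, 0.00848, 0.00557, 0.00973 and 0.0312% of protein-coding TPM, and how these transcripts came into the libraries was not tested.

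Thyroid and salivary gland genes were below 2 TPM in every library except Amy1 (12.8 ± 4.08 TPM) and the thyrotropin receptor gene Tshr (3.46 to 5.53 TPM). Dcpp1, a salivary gland gene, was at 0 reads in every library, where 3 reads would give 0.718 TPM in vehicle 4 and 2.55 TPM in vehicle 5.

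Genes of cell state also differed between libraries. Interferon-induced genes were high in vehicle 1: Ifit3 had 354, 70.5, 108, 50.1 and 63.1 TPM. Ifit1 had 180.4, 37.4, 51.8, 33.1 and 37.0 TPM. Mx1, the gene of an antiviral GTPase, had 69.2, 16.7, 19.9, 15.5 and 12.4 TPM. Vehicle 1 was the highest in 9 of the 12 list genes (8 or 9 under the other scalings), against 21.3% of genes of at least 1 TPM. Ifi27l2a, Bst2 and Irf7 were the exceptions, all highest in vehicle 5, with Ifi27l2a at 425, 270.2, 530.0, 316 and 817 TPM. Cxcl10, a chemokine induced by interferon, had 71.0, 6.19, 13.2, 6.61 and 3.80 TPM. The neutrophil chemokine genes Cxcl2 and Cxcl5 had another pattern, with 23.5, 14.7, 94.6, 102 and 23.9 TPM for Cxcl2, high in vehicle 3 and vehicle 4, the libraries with the most neutrophil transcripts.

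Acute phase and inflammatory genes were high in vehicle 4, which was the highest in 9 of 12 genes, and in 6 to 9 under the other scalings, against 18.8% of genes of at least 1 TPM. Il1b, the cytokine interleukin 1 beta, had 51.8, 9.86, 97.5, 166 and 28.6 TPM. Saa3, serum amyloid A, had 35.4, 90.8, 77.7, 247 and 178 TPM. Hp, haptoglobin, had 540.2, 1214, 1086, 1552 and 1458 TPM. All 3 were highest in vehicle 4. Il1b was lowest in vehicle 2, and Saa3 and Hp were lowest in vehicle 1. The inhibitor of NF-kappaB, Nfkbia, was highest in vehicle 3 at 459 TPM. From the highest library down, S100a8, S100a9 and Il1b had the same order, vehicle 4, 3, 1, 5 and 2, and the part of neutrophils in the level of Il1b was not tested.

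Genes of glycolysis and respiration were mostly highest in vehicle 4 and vehicle 5, the libraries with the most muscle transcripts, and the part of muscle in this was not tested. Aldoa, an aldolase that skeletal muscle makes in large amounts, had 519.7, 729, 679, 2319 and 1740.3 TPM. Gapdh had 185, 245, 294, 497 and 401 TPM. Of the 12 hypoxia and glycolysis genes, 4 were highest in vehicle 4 and 5 in vehicle 5, against 18.8% and 10.4% of genes of at least 1 TPM. In the same list 10 were lowest in vehicle 1, against 13.9% of genes of at least 1 TPM. The nuclear-encoded respiratory chain list took 0.368, 0.393, 0.426, 0.547 and 0.551%, with vehicle 4 or vehicle 5 the highest library in 17 of its 18 genes, with the same 18.8% and 10.4% as background. Ribosomal protein genes were highest in vehicle 3 in 62 of 102 genes of at least 1 TPM, against 16.2% of all genes at that level. The early response genes Fos (463, 170.1, 218, 522 and 233 TPM) and Fosb (75.9, 17.8, 75.4, 80.7 and 149 TPM) varied, while Junb stayed at 192 to 277 TPM.

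Most genes varied little. Over the 10504 genes of at least 10 TPM on average, the SD of log2(TPM + 0.5) had a median of 0.22, with 0.09 and 0.63 at the 5th and 95th percentiles. In 236 genes (2.25%) the SD was at least 1. Of these lists, 13 of 14 skeletal muscle genes, 5 of 5 erythroid genes and 5 of 8 class II and dendritic cell genes passed that mark. No macrophage gene did, and neither did any gene of the matrix, fibroblast and pan-endothelial lists. As only 2.25% of genes passed in general, a lack of them among 14 to 25 genes is near that share. It does not set these lists apart. In 235 genes (2.24%) the SD was no larger than counting reads alone would give. In 63 genes all libraries lay within 1.1-fold, and in 362 genes the range was over 4-fold.

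**Figure D4:**
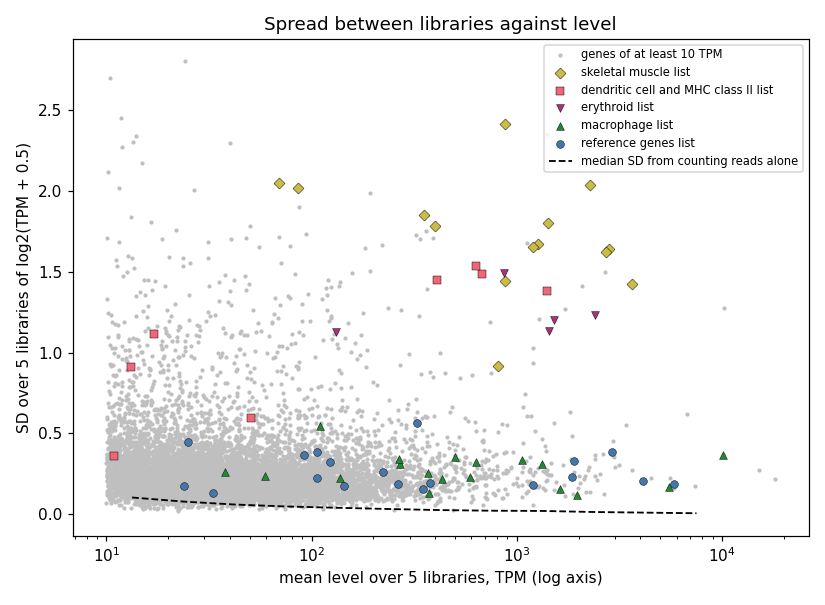
SD over the 5 vehicle libraries of log2(TPM + 0.5) against mean level (log axis) for the 10504 genes of at least 10 TPM, with 5 gene lists marked; the dashed line is the median SD that counting reads alone would give. Skeletal muscle, erythroid and class II genes lie far above the bulk, and reference and macrophage genes lie within it.

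The steadiest genes could be named only loosely. The 15 of smallest SD included Atf4, a transcription factor of the stress response (257, 257, 248, 248.9 and 251 TPM), Ddx5, an RNA helicase (479.7, 490.1, 488, 503 and 485 TPM), Chd3, a chromatin remodeller (114, 117, 110.2, 113 and 115 TPM), and Ift46, a protein of cilia (22.8, 22.3, 22.6, 22.5 and 21.9 TPM). The others were Arl14ep, Abhd17c, Nub1, Ppp1r10, Ube2f, Tm6sf1, Cbfa2t2, Hdac6, Eny2, Rtn3 and Tor1b, at 13.1 to 74.0 TPM. In 13 of the 15 the SD was no larger than counting would give, so the order among them is not resolved. Their choice depended on the scaling: 0 of the 15 remained among the 15 steadiest with TMM or median-of-ratios factors, and 1 with the deposited scaling.

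Common reference genes differed widely in steadiness. Ppia, a cyclophilin, had 342, 337, 411, 307 and 344 TPM, with an SD of 0.15 on the log2 scale. Hprt, Rpl13a, Actb and Ywhaz had SDs of 0.17 to 0.19. B2m (SD 0.39), Tfrc, the transferrin receptor (0.45), and Gapdh (0.56) were the least steady, and the SD of Gapdh was larger than that of 93.5% of genes of at least 10 TPM. Tbp was below 10 TPM, at 6.86 ± 1.53 TPM.

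**Figure D5:**
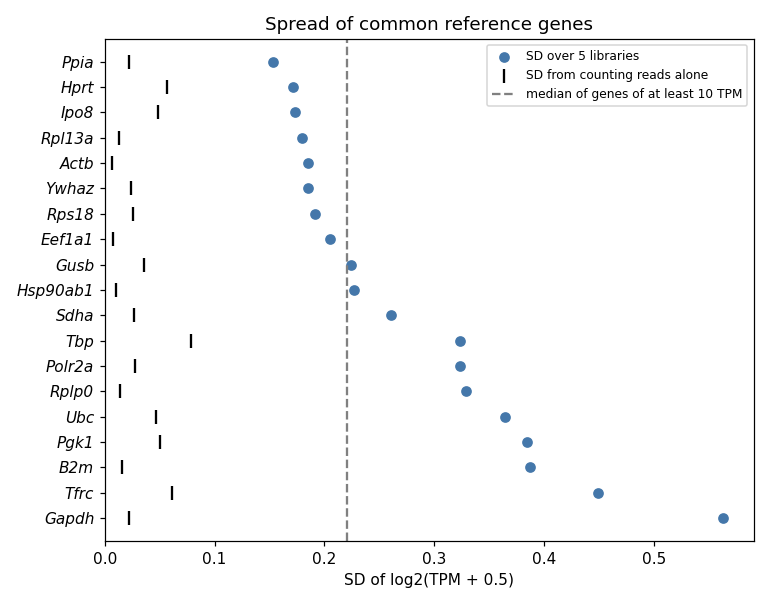
SD over the 5 vehicle libraries of log2(TPM + 0.5) for 19 reference genes (points), with the SD from counting reads alone (bars) and the median SD of all genes of at least 10 TPM (dashed line). Ppia is at 0.15, below the median of 0.22, and Gapdh is at 0.56.

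Of the 25 most variable genes, 17 were highest in vehicle 4, against 19.2% of genes of at least 10 TPM, and most of them belong to striated muscle. Ankrd2, a stretch-responsive protein of muscle, had the largest SD, with 1.71, 53.6, 0.192, 11.96 and 53.4 TPM, high in vehicle 2 and vehicle 5. Muscle genes beyond the list were Myf6, a muscle transcription factor (11.4, 35.6, 5.91, 162 and 34.5 TPM), Mybpc2, a myosin-binding protein (26.7, 36.0, 42.9, 463 and 391 TPM), Trim63, a ubiquitin ligase of muscle (7.01, 74.0, 10.01, 108 and 41.4 TPM), and Igfn1, a sarcomere protein (8.26, 2.03, 3.09, 62.8 and 6.07 TPM). Tcap, Actn3, Pygm, Ckmt2, Nmrk2, Ppp1r27 and Tmem233 completed this group with Mb and Casq1 from the list.

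A few variable genes were of other kinds. Acod1, which makes itaconate in activated macrophages, had 14.5, 1.45, 47.9, 60.3 and 8.80 TPM, lowest in vehicle 2. Rpl36al, a ribosomal protein gene, had 97.5, 133, 3624, 1433 and 1754 TPM, while Rpl36a, its relative, had 213 to 251 TPM. Of the 31-base words of Rpl36al, 18.8% occur in Rpl36a-ps3 and none in Rpl36a. Dynlt1b, a dynein light chain gene, had 27.3, 8.93, 22.8, 10.6 and 0 TPM, and 82.7% of its 31-base words occur in Dynlt1c. The level of Dynlt1b, with such near-identical copies, is uncertain. Rpl36al was compared with Rpl36a and Rpl36a-ps3 only, and neither is a near-identical copy by these words.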

How the data were processed

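RNA was sequenced from 5 vehicle libraries of outflow vein, grouped by their labels. Per the labels, the TruSeq V2 kit was used on total RNA, 0.5 µg per library, and the submitters' processing notes name mm10. The aligner, counter, annotation release and use of strand, not given in the sources used here, leave reads of overlapping, antisense or near-identical genes uncertain. The authors deposited RPKM, which the file headers place beside each gene's length. Multiplied by length plus 1 bp and divided by a step common to each library, these values gave whole reads for 100% of values within 0.001. Total reads were 10648088 to 34271554 per library, and 3 reads equal 0.0875 to 0.282 CPM, a limit that covers counting error only. The 5 antibody columns were not used.

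RPKM of the 22019 genes was rescaled to TPM (Python 3.11.15, numpy 2.4.6, pandas 2.3.3, matplotlib 3.10.9). A reference gene table gave names for 21765 of them, and the file's own name stood for 254. Gene coordinates were taken from the file. Spread was the SD of log2(TPM + 0.5) over genes of at least 10 TPM on average, beside the SD that Poisson counting of the recovered reads gives; this step was tested on simulated data. With 1 group there was no test between conditions.

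Genes were named by a rule: the 25 of highest mean, up to 4 per list, the 15 steadiest and 25 most variable (predicted symbols passed over), Cx3cr1, Cx3cl1 and the reference genes. Further genes of the lists, and genes that stand 2-fold apart in 1 library, were chosen after their values were seen. The members and lists were chosen with earlier results of these data known. Rps6k kinases and Rps19bp1 were left out of the ribosomal list although its prefix takes them in. Trac and Ahsp were not analysed here, and a few other genes of the lists are not reported here. Promoters are from RefSeq (GRCm38.p6). Alternatives were other scalings (deposited RPKM, TMM, median of ratios, none per length), pseudocounts, thresholds, and leaving out each library.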

Additional observations from a re-analysis of the deposited data

Results flagged for a closer look

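In 2 of 39 gene lists and 20 of 213 named genes, 1 library stood far from the other 4. Chance alone gives such a gap in about 5% of groups of this size, so the count of lists is no more than chance gives. The genes include many chosen for their spread or after their values were seen, so their count cannot be set against that rate. The flow-responsive list was at 0.158% of protein-coding TPM in vehicle 2 and the epithelial list at 0.00776% in vehicle 4, each the highest library.

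Vehicle 1 was the high library in 6 of the genes, with Gm10800 at 30482 TPM, Gm21738 at 8879 TPM, Ccl21a at 471 TPM, Ifit3 at 354 TPM, Mmrn1 at 56.5 TPM and the Schwann cell gene S100b at 10.7 TPM. Vehicle 2 was high in 5, with Fn1 at 4409.7 TPM, F13a1 at 657 TPM, Chil3 at 176 TPM, Ccnb2 at 77.0 TPM and Bpifa2, a salivary gland gene, at 1.90 TPM. Vehicle 4 was high in 7, with Myh4 at 7808 TPM, Sln at 292 TPM, Myf6 at 162 TPM, the atrial light chain gene Myl4 at 99.0 TPM, Krt18 at 64.5 TPM, Igfn1 at 62.8 TPM and the cardiac troponin gene Tnnt2 at 37.0 TPM. Nfkbia was high in vehicle 3 at 459 TPM, and Ckmt2, a mitochondrial creatine kinase of muscle, in vehicle 5 at 309 TPM. In each of these genes the library that stood apart was the highest of the 5. The gap was measured on TPM and not on log2 values, and TPM favours calls of a high library. The absence of low calls is therefore no result, and the class II genes low in vehicle 2 were not called.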

How the results depend on the processing

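The level of all 213 named genes moved by less than 1 SD under the 3 other scalings. Without division by length 131 of the 213 moved by more. Leaving out 1 of 5 libraries cannot move a mean by 1 SD. That none of the 213 moved so far then was fixed in advance and is no result. The SD on the log2 scale of the 15 steady and 25 variable genes moved in 14 or 15 of 40 under the 3 scalings and in 1 to 6 when a library was left out. Without division by length, the class II and dendritic cell list was at 0.136%, the erythroid list at 0.141%, the matrix list at 13.3%, the macrophage list at 1.45% and the pan-endothelial list at 0.224%. Then 11 of the 25 most abundant genes remained, and the 25 took 18.9% in place of 13.8%. Without globin the erythroid list was at 0.0146%. Without its most abundant gene the matrix list was at 3.86%, the macrophage list at 1.53% and the pan-endothelial list at 0.124%.

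Genes with an SD of at least 1 numbered 65 above 100 TPM and 938 with no minimum level. Of the 15 steadiest genes, 0 remained with TMM, 0 with median-of-ratios and 1 with the deposited scaling. With no minimum 0 remained, above 100 TPM 3 (chosen after seeing the data), and without overlapping genes 8. Leaving out each library kept 1 to 5 of them. Of the 25 most variable, 14 remained by coefficient of variation and 10 above 100 TPM. Leaving out each library kept 13 to 19, with 13 when vehicle 4 was left out. Genes whose SD was within counting numbered 381 to 499 over 4 libraries, against 235 over 5. The counts of list members highest or lowest in a library stayed within 1.5 times under the scalings and left-out libraries that were run. No paired analysis was possible because only 1 group was used.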
